A study of Mus musculus with 12 samples.

Results

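Ly6c-low heart cells taken 7 days after cryoinjury were compared with Ly6c-high heart cells taken 3 days after it. The comparison used 6 of the 12 RNA-seq libraries of the series, 3 per group, and 12879 of the 14460 genes in the table, those whose signal averaged 1 or more across all 12 libraries. Signal is the authors' normalised read count on a linear scale. All libraries came from the hearts of Cx3cr1GFP/+ mice, aged 2 to 3 months. In this knock-in line the coding sequence of green fluorescent protein stands in 1 of the 2 copies of the fractalkine receptor gene Cx3cr1, so the cells of both groups are heterozygous for Cx3cr1 and were picked by their GFP. The day 3 libraries hold cells sorted as Ly6c-high and CX3CR1-low, and the day 7 libraries hold cells sorted as Ly6c-low and CX3CR1-high. The other libraries are Ly6c-low and CX3CR1-high cells of hearts without surgery (day 0) and of hearts 30 days after the injury. Cryoinjury, a freezing of the heart wall, served as the model of myocardial infarction. The labels call the 3 libraries of a group independent biological replicates, but do not say how many hearts went into each. No Ly6c-high cells of day 7 and no Ly6c-low cells of day 3 are among the libraries, so the sorting gate and the time after injury cannot be told apart in any result below.

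After an infarct the heart first takes in Ly6C-high monocytes from the blood, which carry the chemokine receptor CCR2 and make inflammatory cytokines and proteases that break down dead tissue. In the days that follow, monocyte-derived cells lose Ly6C and come to resemble macrophages, which clear dead cells, make growth factors for fibroblasts and vessels, and present antigen on MHC class II. The uninjured heart holds resident macrophages that keep themselves by division and carry receptors such as TIMD4, LYVE1 and CD163.

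The 6 libraries held 6219246 to 10902936 reads, and 3 reads, the most that a count of 0 allows, were worth 0.287 to 0.454 signal. Between 25.5% and 47.7% of a library's reads fell on 4 genes, Lars2, Gm26924 and the ribosomal RNA genes of the mitochondrion. The shares of replicates 1 to 3 were 25.5%, 32.4% and 31.3% at day 3 and 35.4%, 47.7% and 40.3% at day 7. They did not overlap between the groups, and the part of this difference in the changes below was not tested. On the first principal component of the 6 libraries, which held 70.9% of the variance, the day 3 libraries lay at -59.4 to -49.9 and the day 7 libraries at 43.7 to 76.8. The second component (14.6%) set replicate 2 of day 7, at 42.8, apart from replicates 1 and 3 of day 7, at -28.9 and -26.6. The libraries of day 30 differed little among themselves: the median over genes of the within-group SD of log2(signal + 1) was 0.108 there, against 0.222 at day 3 and 0.360 at day 7. Both facts bear on the tests, since all 4 groups share 1 estimate of the spread.

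Ly6c-low cells of day 7 held less of the inflammatory monocyte and interferon-stimulated messengers that were abundant in Ly6c-high cells of day 3. They held more of the messengers of resident macrophages, MHC class II, C1q and cell division. The words fell and rose below mean lower and higher at day 7, and do not say that the same cells changed. Of the 12879 genes, 6032 (46.8%) passed at an adjusted p under 0.05 in limma, 3001 (23.3%) higher and 3031 (23.5%) lower at day 7. A change of at least 2-fold was seen in 3154 of them (24.5%), 1628 higher and 1526 lower. Changes of 16-fold or more were seen in 7 genes higher and 22 lower. Without the day 30 libraries 5064 genes passed, with the 6 libraries alone 4642, and without replicate 2 of day 7 5720. The 3 libraries of a group lay wholly above or below those of the other in 6553 genes (50.9%), 25.6% with day 7 above and 25.3% with day 7 below. The median log2 fold change over all genes tested was 0.04. Changes below are log2 fold changes of day 7 minus day 3 on the log2(signal + 1) scale ± SE, with n = 3 against 3 and the adjusted p of limma over all genes tested. This scale understates the change of genes with a low signal. P-values and SEs draw on the spread within all 4 groups, so they can be too small for days 3 and 7. The SE of Ctss, for example, was 0.18 in this fit and 0.27 with the 6 libraries alone. List counts are to be read against the 23.3% of all genes that were higher and the 23.5% that were lower.

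**Figure D1:**
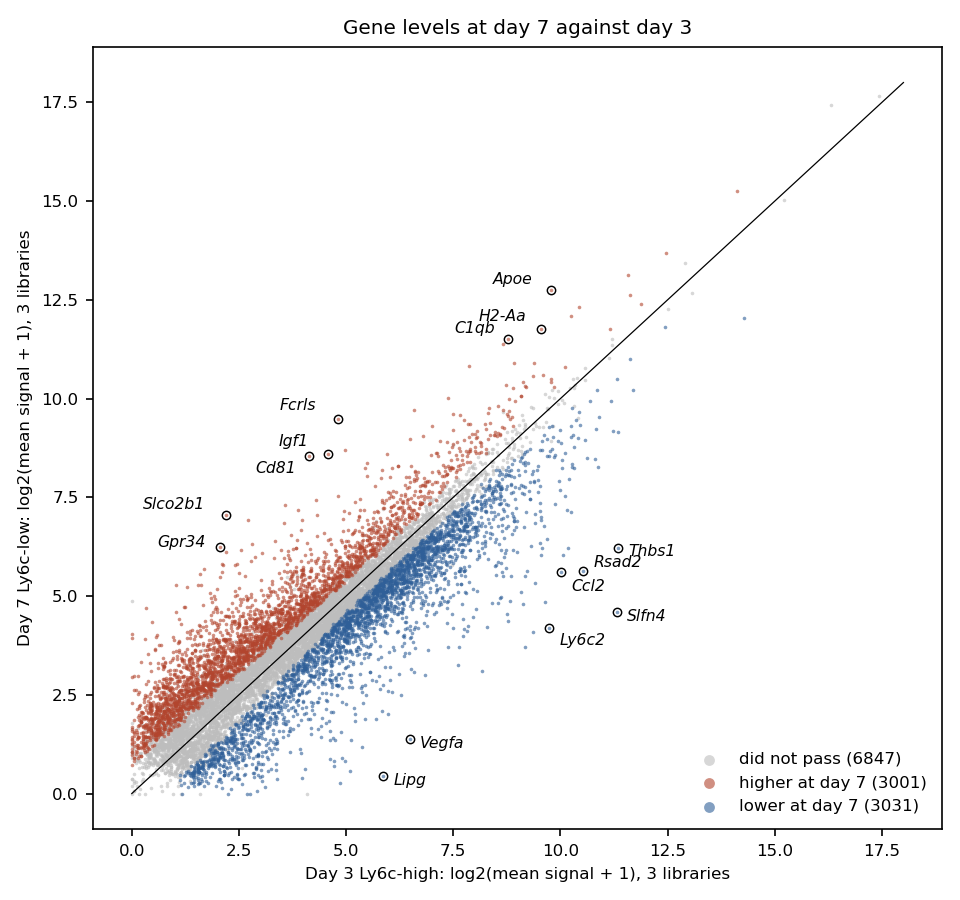
Each point is 1 of the 12879 genes tested, at its log2(mean signal + 1) in the 3 day 3 libraries (x axis) and the 3 day 7 libraries (y axis); the line marks equal levels, and red and blue points passed the test. The lower right, with Slfn4, Thbs1 and Rsad2 far below the line, holds longer falls than the upper left holds rises, where Fcrls, Igf1 and Slco2b1 stand out.

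The genes of the sorting gate followed it, which is a check of the labels and no finding. Cx3cr1 (chromosome 9, 119901616 to 120069879 on GRCm38, as are all gene positions here, from GENCODE M21) had a signal of 44, 39.1 and 33.8 at day 3 and 142, 204 and 176 at day 7 (2.12 ± 0.15, adjusted p = 6.3e-08). Ly6c2, which encodes the antigen of the gate, had 619.8, 933 and 1004 at day 3 and 2.88, 26.7 and 22.2 at day 7 (-5.95 ± 0.74, adjusted p = 1.5e-05). The day 7 libraries were thus far below those of day 3, with replicate 1 lowest. Reads of Ly6c2 and its near-identical neighbour Ly6c1 may have been split between them by the authors' counting. Ly6c1 passed in the same direction (-1.81 ± 0.66, adjusted p = 0.034), and its call ended without replicate 1 of day 7, where the change was -1.27 (adjusted p = 0.15). It also ended without any 1 of the day 3 libraries, at adjusted p = 0.076, 0.061 and 0.092, and without replicate 3 of day 7, at 0.061.

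A list of 7 macrophage identity genes had signal in both groups, though some of them, such as the leukocyte gene Ptprc, are not particular to macrophages. The summed signal of 7 identity genes was 4384, 4861 and 4830.4 at day 3 and 3802, 4971 and 4241 at day 7, so the groups overlapped. Within that sum the genes parted. Emr1, which encodes the macrophage antigen F4/80, rose from 279, 142 and 183 to 596, 854 and 844 (1.95 ± 0.21, adjusted p = 3.8e-06), and Csf1r, the receptor that keeps macrophages alive, rose by 1.27 ± 0.18. Itgam, the integrin chain CD11b, went from 1205, 1301 and 1153 to 480.4, 619 and 474 (-1.23 ± 0.15, adjusted p = 1.5e-05), Ptprc, the leukocyte antigen CD45, changed by -1.18 ± 0.20, and the high-affinity IgG receptor Fcgr1 by -1.82 ± 0.17. Cd68, a lysosomal glycoprotein of macrophages, did not pass (-0.09 ± 0.17, adjusted p = 0.68), and its sign turned under other settings.

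Markers of other heart and blood cells moved between the groups too. Fibroblast markers summed to 461, 557 and 646 at day 3 and 1392, 4186 and 1008 at day 7, with replicate 2 of day 7 highest, and 17 of 20 were higher and 1 lower. Among them Mgp, an inhibitor of calcification, had 3.64, 5.08 and 5.29 at day 3 and 36.8, 70.4 and 32.4 at day 7 (3.0 ± 0.37, adjusted p = 1.4e-05), and the matrix protein gene Sparc had 71.1, 94 and 101 at day 3 and 268, 1021 and 220.1 at day 7 (2.15 ± 0.53, adjusted p = 0.004). Without replicate 2 of day 7, 11 of the 20 were higher. No fibroblast marker was at 0 throughout a group. The summed level at day 0 was 82.1 to 256 and at day 30 322 to 326.

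Cardiomyocyte markers were higher at day 7 in 12 of 15, but their sums of 234, 249 and 281 and 238, 409.6 and 252 overlapped. Much of the sum at day 3 was Atp2a2, a calcium pump gene of many cells (mean 210 at day 3 and 99 at day 7, -1.07 ± 0.14, adjusted p = 2e-05). It was the 1 lower marker, and its fall offsets the rises of the 12 higher markers in the sum. The overlap of the sums therefore does not show like levels of the other cardiomyocyte markers. Myh6, the atrial and adult myosin heavy chain of rodent heart, had 0.671, 0.472 and 0 at day 3 and 15.1, 29.6 and 12.9 at day 7. Of the 6 mast cell markers in the table, 5 were at 0 in all day 3 libraries, and the sums were 0.575, 0.59 and 0.794 at day 3 and 19.5, 10.5 and 13.7 at day 7. Sums of B cell markers were 82.1 to 119 at day 3 and 244 to 372 at day 7, most of it from Ighm, the immunoglobulin heavy chain of IgM (1.56 ± 0.20, adjusted p = 2e-05). Dendritic cell marker sums were 39.7 to 89.4 and 79 to 148, those of mural cells 26.1 to 35.6 and 57.3 to 175, and of erythroid cells 3.31 to 23.9 and 21.3 to 62.7. T and NK cell markers summed to 78.4 to 147 at day 3 and 64.4 to 114 at day 7, but most of the day 3 sum was Il7r, which was lower at day 7. Without Il7r, left out after the values were seen, the sums were 8.74 to 16.2 at day 3 and 47.2 to 83.7 at day 7, and 5 of the other 8 tested were higher. That count of 5 was 3 without replicate 1 or 2 of day 3 or without replicate 1 or 3 of day 7.

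Neutrophil markers went the other way, with sums of 313, 246 and 297 at day 3 and 103, 163 and 147 at day 7, and 5 of 6 tested lower, or 3 without replicate 1 of day 3 or without replicate 1 of day 7. The endothelial sum was 831 to 1049 at day 3 and 137 to 279 at day 7, and most of it at day 3 was Ly6a, an antigen that leukocytes share (676, 673 and 840.3 at day 3 and 47.2, 85 and 106 at day 7, -3.25 ± 0.46, adjusted p = 5.3e-05). Without Ly6a the endothelial sums overlapped, at 157 to 209 and 89.6 to 194. Markers of Ly6c-low patrolling monocytes summed to 325, 583 and 497 at day 3 and 195, 276 and 178 at day 7, but they did not move as 1 block. Of 9 tested, 3 were higher, Spn (2.35 ± 0.24), Eno3 (1.48 ± 0.22) and Cd300e (1.29 ± 0.36). Another 2 were lower, Nr4a1 (-2.91 ± 0.43) and Itgal (-1.49 ± 0.33). Nr4a1 alone had a mean signal of 264 at day 3 and 34.1 at day 7. In bulk libraries, fewer cells of a type and less RNA per cell cannot be told apart. The part of these other cells in the changes below was not tested, and the sums are repeated where a gene group is also made by one of them.

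**Figure D2:**
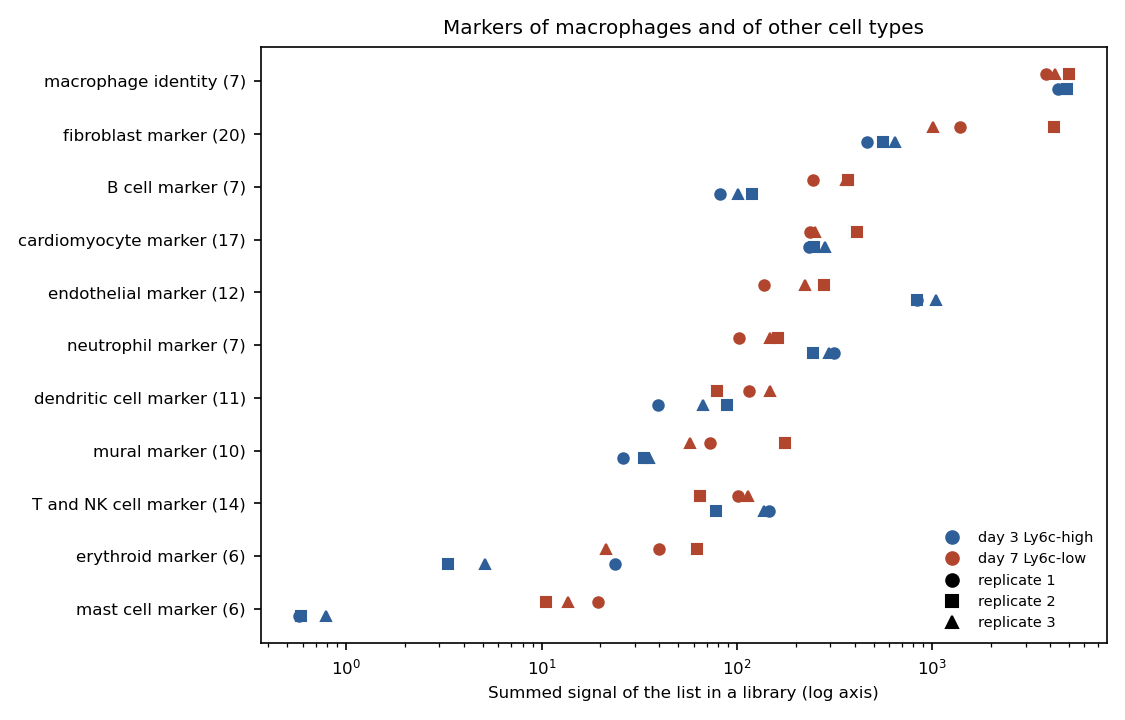
Summed signal (log axis) of each marker list in each of the 3 day 3 libraries (blue) and 3 day 7 libraries (red), with the number of genes summed in parentheses and the marker shape giving the replicate. Macrophage identity genes overlap between the groups, while fibroblast markers reach 4186 in replicate 2 of day 7 and mast cell markers stay under 1 at day 3.

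Slfn4, Plac8 and Thbs1, of the list of Ly6C-high monocyte genes, were among the largest falls. Slfn4 (chromosome 11, 83175186 to 83190216), a member of the Schlafen family, had a signal of 2194, 2631 and 2817 at day 3 and 19.2, 26.9 and 23.1 at day 7 (-6.73 ± 0.24, adjusted p = 1.7e-10). Its lowest day 3 library was far above its highest day 7 library. Plac8, a small cysteine-rich protein of monocytes, had 408, 767 and 777 at day 3 and 3.78, 11 and 33.2 at day 7 (-5.64 ± 0.61, adjusted p = 4.2e-06). Thbs1, the matrix glycoprotein thrombospondin 1, had 1878, 3195 and 2745 at day 3 and 56.6, 112 and 51.4 at day 7 (-5.19 ± 0.25, adjusted p = 1.7e-09). Clec4e, the Mincle receptor for dead cells and fungal lipids, fell by 5.05 ± 0.30 to 5.3, 9.25 and 8.33. Lipg, endothelial lipase, had 53.2, 49 and 68.4 at day 3 and 0, 0.462 and 0.584 at day 7, a level near that of 3 reads.

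Slco2b1 and Cd81, of the list of resident macrophage genes, were among the largest rises. Slco2b1, an organic anion transporter (chromosome 7, 99657804 to 99711340), had 6.71, 1.77 and 2.25 at day 3 and 122, 142 and 129 at day 7 (5.0 ± 0.27, adjusted p = 4.4e-09). Fcrls, an Fc receptor-like scavenger receptor, had 52.3, 13.3 and 15.9 at day 3 and 564, 901 and 692 at day 7 (4.91 ± 0.34, adjusted p = 5.5e-08), and Cd81, a tetraspanin, had 17.4, 13.6 and 18.8 at day 3 and 279, 453 and 377 at day 7 (4.38 ± 0.17, adjusted p = 3.6e-10). Replicate 1 of day 3 held more Slco2b1 and Fcrls than the other day 3 libraries, and it was still far below every day 7 library. The receptor genes Gpr34 and Lilra5 rose by 4.23 ± 0.33 and 4.34 ± 0.24. The phospholipid transfer protein gene Pltp rose by 3.73 ± 0.20, the phosphatase gene Inpp4b by 3.96 ± 0.18 and the vesicle gene Scamp5 by 3.99 ± 0.22. Col14a1, a fibril-associated collagen that fibroblasts also make, had 6.51, 4.96 and 5.03 at day 3 and 127, 147 and 88.7 at day 7 (4.21 ± 0.18, adjusted p = 5.7e-10), and fibroblast markers moved with it as given above. Rps27a-ps2, named as a ribosomal protein pseudogene, also met the rule (3.87 ± 0.75), with 9.23, 57.2 and 8.33 at day 7, and is uncertain because its reads may come from the parent gene.

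**Figure D3:**
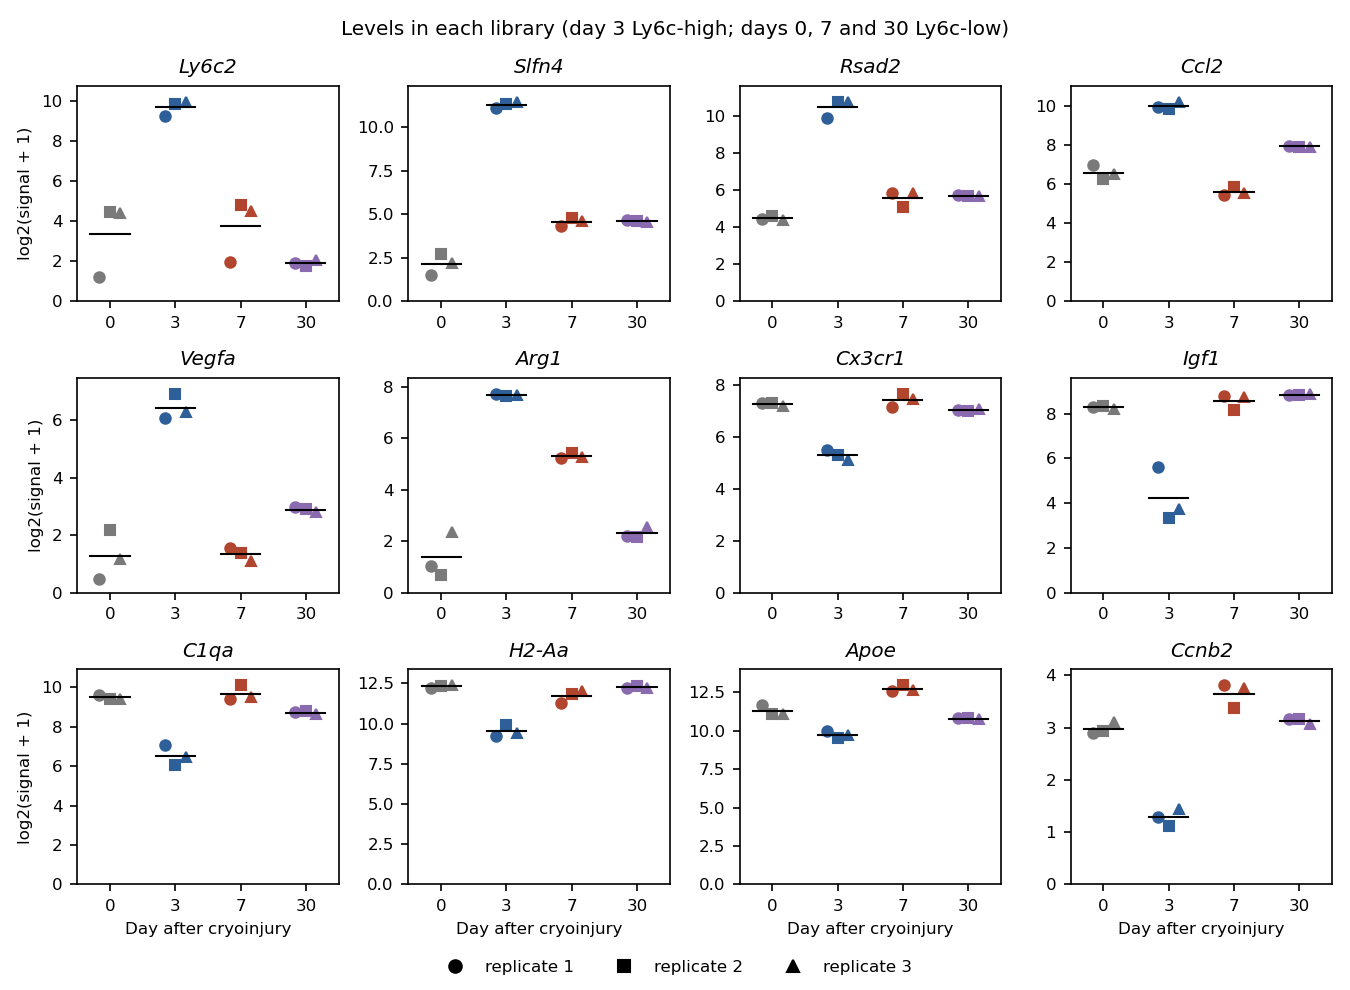
Log2(signal + 1) of 12 genes in all 12 libraries by day after injury, with marker shapes for replicates and black lines for group means. The first 6 genes are highest in the day 3 libraries and the last 6 are lower there than in every day 7 library.

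As a group, Ly6C-high monocyte genes were lower at day 7. Of 22 tested, 20 fell and 0 rose, with a median of -3.53 against 0.04 over all genes and against 23.5% of all genes that were lower. The list was written with earlier results of these libraries known and holds the gate antigen gene Ly6c2; without it 19 of 21 fell, with a median of -3.48. The proteoglycan gene Vcan fell from 573, 1045 and 774 to 22.7, 34 and 26.7 (-4.77 ± 0.52, adjusted p = 4.4e-06). Chi3l3, which encodes the chitinase-like protein Ym1 and has near-identical relatives, fell by 4.34 ± 0.66. Ccr2, the receptor by which monocytes leave the marrow, was lower but still present, at 1404, 1728 and 1422 at day 3 and 402, 375 and 713 at day 7 (-1.67 ± 0.23, adjusted p = 4.3e-05).

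Of the genes of coagulation and fibrinolysis, 7 of 12 were lower and 1 higher. Thbs1 and F10 are also on the monocyte list, and without them 5 of 10 were lower. F10, coagulation factor X, had 40.9, 92 and 95.8 at day 3 and 2.88, 6.36 and 4.53 at day 7 (-3.74 ± 0.39, adjusted p = 2.6e-06). F5, factor V, changed by -3.17 ± 0.48, and Plaur, the urokinase receptor that focuses plasmin on the cell surface, by -2.5 ± 0.28. Pros1, protein S, an inhibitor of coagulation and a bridge to dead cells, was the 1 gene that rose (25.7, 29.6 and 22.4 at day 3 and 70.2, 34.4 and 57 at day 7, 0.98 ± 0.21, adjusted p = 0.0016). F13a1, the factor XIII chain that cross-links fibrin, did not pass (0.26 ± 0.22, adjusted p = 0.35), but it passed without replicate 2 of day 7 (0.56, adjusted p = 0.016), with array weights (0.45, adjusted p = 0.041) and under quantile normalisation (0.62, adjusted p = 0.023). The count of higher coagulation genes was 3 without that library or with array weights, and 2 under quantile normalisation and with edgeR and DESeq2 on recovered reads. Ppbp, a chemokine gene of platelets, had 43.6, 28.1 and 24.8 at day 3 and 6.81, 13.1 and 5.26 at day 7 (-1.87 ± 0.28, adjusted p = 9.2e-05).

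Interferon-stimulated genes were lower at day 7 without exception. All 32 tested fell, with a median of -2.99, and their summed signal was 10391, 16481 and 17101 at day 3 and 1667, 1628 and 2082 at day 7. All 32 also passed with the 6 libraries alone and without replicate 2 of day 7. Rsad2, the antiviral enzyme viperin, had 967, 1718 and 1746 at day 3 and 56.9, 33.1 and 56.2 at day 7 (-4.88 ± 0.23, adjusted p = 1.6e-09). Replicate 1 of day 3 was lowest of its group and still well above day 7. Isg15, a ubiquitin-like modifier, had 161, 349.7 and 423 at day 3 and 17, 18.3 and 17.4 at day 7 (-3.96 ± 0.27, adjusted p = 4.2e-08). Ifi205, of the HIN-200 family of DNA-binding proteins, had 301, 513 and 491 at day 3 and 15, 21.6 and 21.9 at day 7 (-4.39 ± 0.21, adjusted p = 1.6e-09), and Mx1, a dynamin-like GTPase, 374, 667 and 632 at day 3 and 26.8, 20.2 and 33.2 at day 7 (-4.31 ± 0.23, adjusted p = 4e-09). The smallest changes were in Irf9, a subunit of the factor that binds these genes (-0.55 ± 0.14), and Bst2, the tethering protein tetherin (-1.05 ± 0.17). The call of Irf9 ended under quantile normalisation (adjusted p = 0.14).

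Interferon-stimulated genes carry a DNA element for interferon regulatory factors, a tandem repeat of GAAA. The promoters of the 3 members below are shown because they were named by size of change and hold GAAA, any 2 bases and GAAA again, on 1 strand or the other. Each is 200 bases before the gene's start on the gene's own strand, from RefSeq on GRCm38.p6, with the matches in capitals, which may overlap each other.
Rsad2, chr12:26456453-26456652, minus strand: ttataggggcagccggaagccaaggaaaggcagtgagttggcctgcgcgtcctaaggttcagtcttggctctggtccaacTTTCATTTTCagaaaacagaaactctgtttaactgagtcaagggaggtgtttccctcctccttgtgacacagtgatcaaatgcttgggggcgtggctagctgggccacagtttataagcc
Isg15, chr4:156200819-156201018, minus strand: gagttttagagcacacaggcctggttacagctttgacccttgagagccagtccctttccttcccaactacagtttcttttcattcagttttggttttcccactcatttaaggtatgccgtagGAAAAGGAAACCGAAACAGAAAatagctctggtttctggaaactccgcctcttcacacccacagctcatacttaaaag
Ifi205, chr1:174031756-174031955, minus strand: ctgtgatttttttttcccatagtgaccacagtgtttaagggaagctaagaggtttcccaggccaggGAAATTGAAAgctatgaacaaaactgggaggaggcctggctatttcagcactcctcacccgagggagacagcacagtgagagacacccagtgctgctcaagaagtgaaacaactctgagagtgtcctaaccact
The match in Rsad2 is on the opposite strand and begins 120 bases before the start. In Isg15 3 matches overlap, the first 78 bases before the start, and in Ifi205 a single match lies 134 bases before it. In windows of 300 bases, 250 before to 50 after the start and read on both strands, this repeat was present in 14 of the 24 interferon-stimulated genes with a promoter in the table (58.3%), in 3.44% of all 32851 promoters and in 4.13% of the 9534 tested genes with one. It was in 21.5% of the genes at least 4-fold lower at day 7, in 3.11% of those at least 4-fold higher and in 3.35% of those that did not pass. The list contributes to the first of these shares. A match describes the sequence and does not show that a factor binds.

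Pro-inflammatory cytokines and chemokines were lower too, 15 of 18 with a median of -2.20. Ccl2, the ligand of CCR2, had 979, 921 and 1173 at day 3 and 41.6, 55.4 and 45.9 at day 7 (-4.4 ± 0.18, adjusted p = 4.4e-10), and its neighbour in function Ccl7 had 645, 381 and 589 at day 3 and 27.9, 26.4 and 46 at day 7 (-3.98 ± 0.25, adjusted p = 2.1e-08). Osm, oncostatin M, a cytokine that acts on cardiomyocytes and stroma, had 162, 277 and 235 at day 3 and 21.8, 10.4 and 17.1 at day 7 (-3.72 ± 0.32, adjusted p = 4.6e-07). The neutrophil attractant Cxcl3 had 28.6, 28.9 and 27 at day 3 and was at or under the level of 3 reads at day 7. The other 3 did not pass. Tumour necrosis factor, Tnf, had 31.5, 29.2 and 37.3 at day 3 and 20.7, 29.1 and 30.2 at day 7 (-0.29 ± 0.25, adjusted p = 0.34), with overlapping groups. The T cell attractant Cxcl9 was at 0.07 ± 0.29 (adjusted p = 0.87). The highest value of the list was 0.73, and 1 member passed as higher with the 6 libraries alone.

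Genes that restrain inflammation fell alongside those that drive it, 11 of 15 lower and 1 higher. Il1rn, the interleukin 1 receptor antagonist, had 359, 462 and 550.3 at day 3 and 34.8, 57.8 and 41.5 at day 7 (-3.34 ± 0.23, adjusted p = 4.9e-08), and the decoy receptor Il1r2 fell by 2.2 ± 0.38. Cd274, the checkpoint ligand PD-L1, had 158, 178 and 206 at day 3 and 14.5, 7.75 and 29.9 at day 7 (-3.48 ± 0.35, adjusted p = 2e-06). Zfp36, tristetraprolin, which marks cytokine messengers for decay, had 1937, 3059 and 2759.9 at day 3 and 683, 513 and 499 at day 7 (-2.18 ± 0.43, adjusted p = 0.00077). The 1 higher gene, Tnip1, lost its call with the 6 libraries alone (adjusted p = 0.12), without day 30 (0.083), and without replicate 1 or 2 of day 3 (0.10 and 0.093) or replicate 2 of day 7 (0.086).

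Of 13 receptor genes for chemoattractants tested, 6 were lower, and only Cx3cr1 and Ccr7 were higher. Ccr1 had 109, 139.9 and 139.9 at day 3 and 18.8, 32.5 and 31.4 at day 7 (-2.22 ± 0.19, adjusted p = 4.8e-07), and the formyl peptide receptor Fpr2 21.2, 27 and 25.7 at day 3 and 4.84, 3.81 and 10.2 at day 7 (-1.9 ± 0.26, adjusted p = 3.3e-05). Ccr7, which guides cells to lymph nodes, had 0.766, 1.65 and 1.85 at day 3 and 6.21, 5.09 and 3.51 at day 7 (1.3 ± 0.33, adjusted p = 0.0053). Cxcr4, the receptor for CXCL12, and C3ar1, the receptor for complement C3a, did not pass (-0.06 ± 0.18 and -0.10 ± 0.17). Cxcr2 fell by 2.08 ± 0.41. It is also on the neutrophil marker list, so the lower neutrophil sums given above hold its own signal.

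Genes of resident cardiac macrophages were higher at day 7. Of 27 tested, 19 rose and 2 fell, with a median of 2.12, against 23.3% of all genes that rose. The list holds Cx3cr1, a gene of the sorting gate whose own value is this median; without it 18 of 26 rose, with a median of 2.01. The summed signal was 2555, 1908 and 1938 at day 3 and 6401, 5761 and 8396 at day 7, below the 12534 to 14844 of uninjured hearts. Beside Slco2b1 and Cd81, the lectin receptor gene Mgl2 had 4.98, 1.77 and 3.31 at day 3 and 61.5, 38.1 and 64 at day 7 (3.71 ± 0.25, adjusted p = 3.7e-08), and Igf1, insulin-like growth factor 1 (chromosome 10, 87858265 to 87937042), had 47.8, 8.97 and 12.2 at day 3 and 436, 289 and 423 at day 7 (4.34 ± 0.39, adjusted p = 7.3e-07). Igf1 at day 7 lay near the 309, 324 and 294 of day 0. Not every gene of the list followed. The sialic acid receptor gene Siglec1 fell by 0.87 ± 0.17, and Maf, a transcription factor of macrophages, did not pass (-0.16 ± 0.15).

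MHC class II genes rose at the level of both chains and their chaperones, 10 of 15 tested. H2-Aa had 593, 956 and 696 at day 3 and 2469.5, 3649 and 4275 at day 7 (2.2 ± 0.23, adjusted p = 2.6e-06), H2-Ab1 rose by 1.98 ± 0.23, and H2-Eb1 had 130.0, 208 and 156 at day 3 and 716, 1237 and 1147 at day 7 (2.63 ± 0.21, adjusted p = 1.9e-07). H2-Oa, a regulator of peptide loading, had 0.862, 1.89 and 0.132 at day 3 and 10.1, 20.7 and 13 at day 7 (3.04 ± 0.33, adjusted p = 4.3e-06). Ciita, the factor that switches the class on, did not pass (0.35 ± 0.21, adjusted p = 0.18), but it passed without replicate 2 of day 3 (0.63, adjusted p = 0.014). The antigen-processing genes Ctss (-0.63 ± 0.18) and Ifi30 (-0.54 ± 0.16) were lower, and both calls ended with the 6 libraries alone (adjusted p = 0.081 and 0.065). Ifi30 also lost its call without replicate 3 of day 3 (adjusted p = 0.059). Dendritic and B cells also make class II: 6 of 11 dendritic cell markers and 4 of 6 B cell markers were higher, with the sums given above. Of these, Cd209a had 2.68, 12.8 and 9.66 at day 3 and 25.6, 22 and 48.1 at day 7 and Zbtb46, a factor of conventional dendritic cells, 1.15, 2.48 and 3.97 at day 3 and 9.69, 7.51 and 9.06 at day 7.

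Complement genes were higher in 9 of 17 and lower in 2. The chains of C1q, which starts the classical pathway and tags dead cells, rose together: C1qa had 135, 65.3 and 86.3 at day 3 and 677, 1094 and 729 at day 7 (adjusted p = 7.4e-08), C1qb rose by 2.71 ± 0.23 and C1qc by 3.0 ± 0.23. Vsig4, a receptor for C3 fragments, had 1.05, 0.472 and 0.265 at day 3 and 12.6, 8.21 and 17.1 at day 7 (3.07 ± 0.26, adjusted p = 3.3e-07). Cfb, factor B of the alternative pathway, went the other way with 347, 383 and 471 at day 3 and 29.5, 56.9 and 47.3 at day 7 (-3.18 ± 0.21, adjusted p = 3.7e-08), as did C3, the central component, with 140.4, 294 and 254 at day 3 and 51.3, 112 and 77.7 at day 7 (-1.5 ± 0.30, adjusted p = 0.0008).

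Receptors and bridging proteins for dead cells rose in 13 of 24 and fell in 3, with a median of 0.66. Some of these rises are counted in other lists too. The C1q genes are also on the complement list and Pros1 on that of coagulation. Cd163 is also on the list of alternative activation and Itgb5 on that of adhesion. Gas6, the bridge between phosphatidylserine and the TAM receptors, had 23.1, 7.91 and 9.8 at day 3 and 131, 155 and 144 at day 7 (3.44 ± 0.26, adjusted p = 1.2e-07), and Cd163, the haptoglobin-hemoglobin receptor, 6.04, 1.89 and 1.59 at day 3 and 55.6, 23.4 and 52.1 at day 7 (3.48 ± 0.34, adjusted p = 1.6e-06). Msr1, scavenger receptor A, had 709, 741 and 758 at day 3 and 176, 144 and 171 at day 7 (-2.17 ± 0.12, adjusted p = 9e-09). Anxa1, annexin A1, and Havcr2, the TIM-3 receptor, also fell (-1.27 ± 0.16 and -1.31 ± 0.26). Mertk, the TAM receptor of macrophages, did not pass (101, 50.9 and 63.7 at day 3 and 110.1, 88.7 and 89.7 at day 7, 0.47 ± 0.22, adjusted p = 0.095). It passed without replicate 1 of day 3 (0.74, adjusted p = 0.008), the highest library of its group, under quantile normalisation (0.76, adjusted p = 0.01) and with array weights (0.63, adjusted p = 0.014).

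Genes of alternative activation, the state induced by interleukins 4 and 13, did not move as 1 block: 7 of 14 were higher and 4 lower. Mrc1, the mannose receptor CD206, had 311, 179 and 149.6 at day 3 and 748, 463 and 906 at day 7 (1.74 ± 0.26, adjusted p = 8.9e-05). Ccl22, a T cell attractant, had 0.958, 1.18 and 1.46 at day 3 and 25.4, 16.3 and 14.2 at day 7 (3.12 ± 0.33, adjusted p = 2.9e-06). Arg1, arginase 1, had 211, 198 and 205 at day 3 and 36.9, 41.6 and 37.4 at day 7 (-2.38 ± 0.31, adjusted p = 2.1e-05), so it was lower at day 7 with little spread in either group, though above the 1.06, 0.629 and 4.17 of day 0. With Chi3l3 it was among the lower genes, as was the factor Klf4 (-1.36 ± 0.34). Stat6, the factor that carries the interleukin 4 signal, did not pass (-0.24 ± 0.16, adjusted p = 0.24). Without replicate 2 of day 7 it did (-0.44, adjusted p = 0.0069), as with array weights (-0.40, adjusted p = 0.022), while under quantile normalisation its sign turned.

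Growth factors were higher in 8 of 16 and lower in 4, the latter a share near the 23.5% of all genes. Vegfa, the main growth factor for endothelium (chromosome 17, 46016993 to 46032369), had 66.5, 121 and 77.8 at day 3 and 1.97, 1.62 and 1.17 at day 7 (-5.08 ± 0.35, adjusted p = 4.2e-08). Its relative Vegfb had 0.862, 1.3 and 0.662 at day 3 and 9.39, 12.9 and 7.16 at day 7 (2.46 ± 0.25, adjusted p = 2.2e-06). The platelet-derived growth factors, which act on fibroblasts and mural cells, were higher: Pdgfb had 2.78, 3.31 and 2.25 at day 3 and 22.1, 48.7 and 22.8 at day 7 (3.0 ± 0.25, adjusted p = 3.6e-07) and Pdgfc 6.61, 2.13 and 3.31 at day 3 and 26.2, 19.8 and 35.9 at day 7 (2.56 ± 0.28, adjusted p = 4.6e-06). Csf1, the ligand of the higher receptor Csf1r, had 24.5, 25 and 29.5 at day 3 and 6.06, 8.67 and 4.09 at day 7 (-1.96 ± 0.24, adjusted p = 1.1e-05). The activin chain gene Inhba had 3.93, 9.44 and 5.96 at day 3 and 1.21, 0.809 and 0.73 at day 7 (-1.9 ± 0.31, adjusted p = 0.00017) and the EGF family gene Areg 2.87, 3.31 and 4.63 at day 3 and 0.454, 0 and 1.31 at day 7 (-1.6 ± 0.34, adjusted p = 0.0014). Tgfb1, the main profibrotic cytokine of the group, had 53.1, 102 and 91.3 at day 3 and 73.7, 132 and 70.6 at day 7 with overlapping groups and did not pass (0.16 ± 0.24, adjusted p = 0.61).

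Matrix remodelling genes were lower in 12 of 23 and higher in 5, the latter near the 23.3% of all genes and 3 without replicate 2 of day 3. Mmp8, neutrophil collagenase, had 66.7, 60.6 and 64.1 at day 3 and 3.48, 7.98 and 7.45 at day 7 (-3.21 ± 0.42, adjusted p = 2.5e-05). Mmp8 is also on the neutrophil marker list, so the lower neutrophil sums hold its own signal. Mmp19 had 78, 128 and 96.2 at day 3 and 13.6, 23.1 and 14.8 at day 7 (-2.49 ± 0.22, adjusted p = 7.1e-07), the cross-linking enzyme Tgm2 329, 550.4 and 571 at day 3 and 82.5, 159 and 59.2 at day 7 (-2.34 ± 0.41, adjusted p = 0.00032), and the adhesion protein gene Tgfbi 1324, 2115 and 2012 at day 3 and 460.4, 830.2 and 496 at day 7 (-1.63 ± 0.22, adjusted p = 3.1e-05). Among the higher genes the inhibitor Timp2 had 99.5, 31.3 and 52.6 at day 3 and 340.5, 434 and 376 at day 7 (2.78 ± 0.28, adjusted p = 1.8e-06). Mmp2, gelatinase A, had 2.87, 3.42 and 2.38 at day 3 and 14.5, 47.6 and 13.9 at day 7 (2.53 ± 0.37, adjusted p = 6.7e-05). Replicate 2 of day 7 was highest for Mmp2, and without it the change was 1.97. Fibroblasts make Mmp2 and Timp2, and the fibroblast sums were 461 to 646 at day 3 and 1008 to 4186 at day 7.

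**Figure D4:**
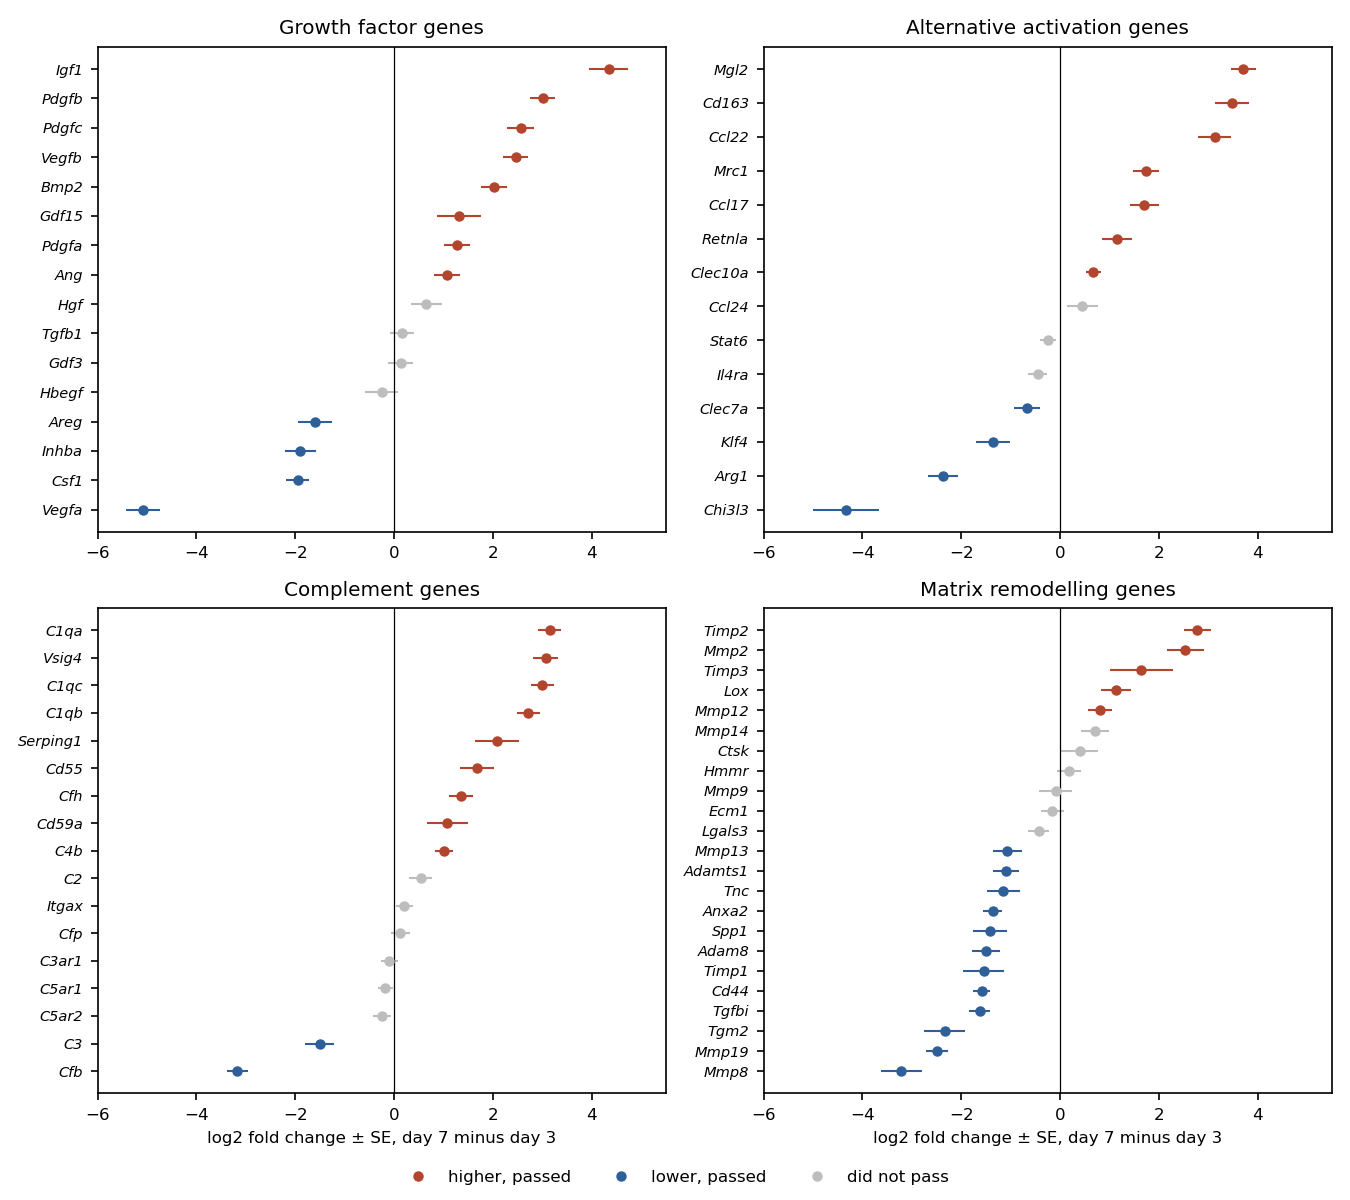
Log2 fold change of day 7 minus day 3 ± SE (x axis, n = 3 against 3) of each tested member of 4 lists. In each list red members to the right of 0 and blue members to the left both passed: Igf1 against Vegfa, Mgl2 against Chi3l3, C1qa against Cfb, and Timp2 against Mmp8.

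Genes of glycolysis and the hypoxia response were lower in 15 of 24, with a median of -0.84. Hif1a, the oxygen-regulated factor, had 324, 435 and 421 at day 3 and 69.9, 60.2 and 82.8 at day 7 (-2.45 ± 0.15, adjusted p = 1.7e-08). Slc2a1, the glucose transporter GLUT1, had 81.2, 138 and 122 at day 3 and 25, 36.4 and 22.9 at day 7 (-1.97 ± 0.21, adjusted p = 3.2e-06), and the phosphofructokinase gene Pfkp 73.1, 124 and 85.4 at day 3 and 32.4, 27.2 and 31.1 at day 7 (-1.58 ± 0.18, adjusted p = 5.9e-06). The 2 higher genes were Pfkfb4 (0.69 ± 0.18) and Gpi1 (0.67 ± 0.19), and without replicate 2 of day 7 the change of Gpi1 was 0.41.

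Nuclear genes of oxidative phosphorylation were mostly not called, with 9 of 52 higher, 4 lower and a median of 0.23. That share of calls was under the 46.8% of all genes. Without the day 30 libraries 3 were higher and 1 lower, and under quantile normalisation 20 and 1. Leaving out replicate 1 or 3 of day 3 gave 2 and 5 higher. Cox4i1, of cytochrome oxidase, changed most, with 92.1, 125 and 124 at day 3 and 149.9, 276 and 235 at day 7 (0.91 ± 0.20, adjusted p = 0.002). In the tricarboxylic acid cycle 3 of 17 were higher, among them Idh2 (1.06 ± 0.17), and 2 lower, among them Dld (-0.84 ± 0.19), both shares under those of all genes.

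Lipid handling was higher in 12 of 26 and lower in 6, the latter near the 23.5% of all genes and 3 without replicate 3 of day 3. Apoe, apolipoprotein E (chromosome 7, 19696109 to 19699188), was among the most abundant messengers of both groups, at 1011, 756 and 854 at day 3 and 6185, 8009 and 6349 at day 7 (2.97 ± 0.20, adjusted p = 3.9e-08), and its day 7 level was above the 3232, 2226 and 2166 of day 0 and the 1795, 1809.8 and 1710.5 of day 30. Trem2, a receptor for lipids and apolipoproteins, had 85.6, 28.9 and 53.1 at day 3 and 245, 389 and 238 at day 7 (2.45 ± 0.28, adjusted p = 7.3e-06), and the tetraspanin Cd63 rose by 1.67 ± 0.22. Plin2, the coat protein of lipid droplets, had 634, 659.8 and 717 at day 3 and 238, 259 and 226 at day 7 (-1.47 ± 0.13, adjusted p = 4.3e-07), and Apoc1 fell by 1.31 ± 0.34. Sterol synthesis genes were higher in 8 of 21. Without the day 30 libraries 4 were higher and with the 6 libraries alone 2, both under the 23.3% of all genes in the full fit, and leaving out replicate 1 of day 3 gave 4, and replicate 2 or 3 of day 3 or replicate 3 of day 7 gave 5. Dhcr7, the last enzyme of cholesterol synthesis, had 8.14, 7.79 and 7.55 at day 3 and 23.9, 24.3 and 21.6 at day 7 (1.46 ± 0.20, adjusted p = 4.5e-05).

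Lysosomal genes were higher in 16 of 41 and lower in 7, the latter under the 23.5% of all genes. Only 3 were lower without replicate 3 of day 3 and 4 without replicate 1 of day 7. Hexa, a hydrolase of glycolipids, had 164, 125 and 127 at day 3 and 373, 485 and 331 at day 7 (1.5 ± 0.17, adjusted p = 4.9e-06). The protease gene Ctsd rose by 1.84 ± 0.20. Atp6v0d2, a pump subunit of osteoclasts and macrophages, had 6.32, 2.72 and 2.25 at day 3 and 28.9, 14 and 29.9 at day 7 (2.43 ± 0.31, adjusted p = 1.9e-05). The general pump subunits Atp6v1d (-0.87 ± 0.15) and Atp6v1h (-0.68 ± 0.18) and the galactosidase gene Gla (-1.0 ± 0.16) fell. Without the day 30 libraries 13 were higher and 3 lower.

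Iron and heme genes were higher in 6 of 17 and lower in 4, the latter near the 23.5% of all genes. Slc40a1, ferroportin, the iron exporter, had 9.1, 4.01 and 8.47 at day 3 and 61, 46.8 and 92.8 at day 7 (3.06 ± 0.27, adjusted p = 4.9e-07). Blvrb, biliverdin reductase B, had 14.7, 18.1 and 18.3 at day 3 and 50, 80.6 and 65.9 at day 7 (1.87 ± 0.17, adjusted p = 7.7e-07), and Slc48a1, the heme transporter of the phagosome, 21.8, 20.5 and 23.7 at day 3 and 51.9, 83.2 and 63.5 at day 7 (1.52 ± 0.17, adjusted p = 6.4e-06). Bach1, a heme-sensing repressor, fell by 1.14 ± 0.15, and Spic, a factor of iron-recycling macrophages, fell by 0.79 ± 0.19. Nfe2l2, the antioxidant factor NRF2, did not pass (-0.04 ± 0.14).

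Genes of cell division were higher at day 7. In mitosis 33 of 36 rose and 0 fell, with a median of 1.61, and in DNA replication 19 of 31 rose, with a median of 1.03. Ccnb2, cyclin B2, had 1.44, 1.18 and 1.72 at day 3 and 13, 9.36 and 12.6 at day 7 (2.36 ± 0.21, adjusted p = 5.4e-07), Ccna2, cyclin A2, 2.59, 3.42 and 3.57 at day 3 and 25, 13.8 and 21.6 at day 7 (2.3 ± 0.21, adjusted p = 7.9e-07), and the kinesin gene Kif20a 0.671, 0.708 and 1.32 at day 3 and 11.1, 12.1 and 5.26 at day 7 (2.41 ± 0.28, adjusted p = 7.1e-06). Foxm1, a transcription factor of the mitotic genes, had 1.92, 1.89 and 1.59 at day 3 and 14.4, 14 and 9.93 at day 7 (2.28 ± 0.23, adjusted p = 2e-06). Among replication genes Pole, a DNA polymerase, had 1.44, 1.77 and 0.265 at day 3 and 7.87, 16.2 and 10.4 at day 7 (2.56 ± 0.33, adjusted p = 2.3e-05), and the helicase genes Mcm2 and Mcm5 rose by 2.18 ± 0.29 and 2.09 ± 0.28. For Mcm2, replicate 2 of day 7 was highest of the 6 libraries, and for Ccnb2 it was lowest of day 7. Levels were low: at day 3 the summed signal of the 36 mitosis genes was 210.0 to 234, at day 7 469 to 779, at day 0 621 to 656 and at day 30 814 to 829.

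The promoters of many mitotic genes hold a CHR element, TTTGAA, bound by the complex of FOXM1, MYB-like proteins and MuvB, and upstream of it CCAAT boxes. Promoters of Cdk1, the mitotic kinase, and Top2a, the topoisomerase that untangles chromosomes, are shown. Both genes passed (Cdk1 2.02 and Top2a 2.26 on the log2 scale) and were chosen after their values were seen and because they hold the letters. Each is 150 bases before the start on the gene's strand, from RefSeq on GRCm38.p6, with TTTGAA, on 1 strand or the other, in capitals.
Cdk1, chr10:69352913-69353062, minus strand: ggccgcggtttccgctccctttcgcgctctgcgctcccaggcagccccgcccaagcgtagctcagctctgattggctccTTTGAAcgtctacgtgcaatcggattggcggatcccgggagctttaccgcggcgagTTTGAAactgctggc
Top2a, chr11:99024190-99024339, minus strand: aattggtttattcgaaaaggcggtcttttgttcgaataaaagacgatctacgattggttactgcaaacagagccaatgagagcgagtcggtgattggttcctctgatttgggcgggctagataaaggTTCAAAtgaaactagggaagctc
Cdk1 has 2 matches, beginning 71 and 15 bases before the start, and Top2a has 1 on the opposite strand, 23 bases before it. In windows of 300 bases, TTTGAA was present in 21 of the 29 mitosis genes with a promoter in the table (72.4%), in 17.9% of all promoters and in 14.7% of tested genes. CCAAT was present in 23 of the 29 (79.3%), in 37.4% of all promoters and in 42.8% of tested genes. Over all genes higher at day 7, TTTGAA was present in 15.7% and CCAAT in 45.5%, and over all genes lower in 14.4% and 40.7%. In genes at least 4-fold higher the shares were 19.2% and 45.6%. In those at least 4-fold lower they were 20.6% and 37.7%, so the order for TTTGAA turned at this cut.

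Transcription factors of myeloid cells were lower in 14 of 35 and higher in 8, or 5 without replicate 1 of day 3. The orphan nuclear receptors Nr4a2 and Nr4a1 had 42.4, 68.4 and 41.3 at day 3 and 2.42, 1.85 and 3.8 at day 7 (-3.8 ± 0.32, adjusted p = 4.2e-07) and 191, 337 and 264 at day 3 and 39.5, 39 and 24 at day 7 (-2.91 ± 0.43, adjusted p = 7.2e-05). Cebpb, a factor of inflammatory and emergency myelopoiesis, had 73.4, 89.3 and 77.4 at day 3 and 16.2, 12.9 and 14.9 at day 7 (-2.37 ± 0.19, adjusted p = 2.3e-07), while its relative Cebpa had 43.7, 35.2 and 42.4 at day 3 and 74.2, 135 and 78.4 at day 7 (1.18 ± 0.20, adjusted p = 0.00025). Rxra, the partner of the liver X and retinoid receptors, had 14.6, 18.2 and 16 at day 3 and 50.6, 78.7 and 41.9 at day 7 (1.71 ± 0.19, adjusted p = 6.4e-06), and Irf4, a factor of alternatively activated macrophages and dendritic cells, 6.32, 9.44 and 5.43 at day 3 and 24.4, 17 and 29.5 at day 7 (1.61 ± 0.21, adjusted p = 2.3e-05).

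Several of these are also early response genes, which can be switched on while tissue is digested and sorted. Of 15 tested, 7 were lower at day 7 and 1 higher, and their summed signal was 4946, 7549 and 6698 at day 3 and 2466, 1974 and 2561 at day 7, with no overlap. The sums at day 0 ran from 2717 to 10682, and at day 30 from 8250.3 to 8469.9. Atf3, a stress factor, had 369, 603 and 484 at day 3 and 115, 117 and 120.4 at day 7 (-2.01 ± 0.42, adjusted p = 0.0013), while Egr1 had 57.5, 70.7 and 68.4 at day 3 and 143, 136 and 179.7 at day 7 (1.2 ± 0.31, adjusted p = 0.0056). Zfp36 and Nr4a1 are members of this list, so its sum moves with them by construction. Zfp36 alone had a mean signal of 2586 at day 3 and 565 at day 7. The sums also moved with Nr4a2 and the cytokines, and the part of the early response in those results was not tested.

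Regulators of messenger decay and the microRNA pathway were lower in 15 of 31 and higher in 3. Besides Zfp36, its relative Zfp36l2 had 423, 645 and 584 at day 3 and 230.3, 158 and 199 at day 7 (-1.48 ± 0.21, adjusted p = 4.3e-05), and Btg1, which recruits deadenylases, 662, 771 and 707 at day 3 and 217, 126 and 247 at day 7 (-1.91 ± 0.20, adjusted p = 3.6e-06). Hnrnpd, the AU-rich element protein AUF1, had 179.8, 204 and 181 at day 3 and 88.9, 32.5 and 64 at day 7 (-1.7 ± 0.26, adjusted p = 9.1e-05). Ago1, an Argonaute protein that holds microRNAs, rose from 27, 20.5 and 21 to 49.4, 44 and 40.8 (0.94 ± 0.15, adjusted p = 0.00015), and Prkra, a partner of Dicer, rose by 0.71 ± 0.20.

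Adhesion genes were lower in 7 of 18. The integrin chain Itgal, of LFA-1, had 76.3, 169 and 152 at day 3 and 38.6, 52.6 and 42.1 at day 7 (-1.49 ± 0.33, adjusted p = 0.0018) and Itgb7 fell by 1.35 ± 0.30. Itga9 rose, with 17.2, 12 and 10.3 at day 3 and 73.1, 81.6 and 67 at day 7 (2.42 ± 0.17, adjusted p = 4.4e-08), as did Itgb5 (1.4 ± 0.21). In the group of oxidase and antimicrobial genes the membrane subunit of the phagocyte oxidase, Cybb, did not pass (847, 1191 and 1122 at day 3 and 1129, 671 and 1193 at day 7, -0.11 ± 0.21, adjusted p = 0.70), while Irg1, which makes itaconate, had 35.4, 26.1 and 39.3 at day 3 and 2.57, 0.462 and 1.61 at day 7 (-3.84 ± 0.33, adjusted p = 3.9e-07) and the protease inhibitor Slpi 23, 51.7 and 51.6 at day 3 and 1.51, 1.39 and 5.11 at day 7 (-3.61 ± 0.40, adjusted p = 4.9e-06). Lyz2, lysozyme of macrophages, had 4004, 7034 and 5997 at day 3 and 10599, 13643 and 15466 at day 7 (1.24 ± 0.26, adjusted p = 0.0014), and reads of its neighbour Lyz1 (1.67 ± 0.28) may have been split with it.

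Among the genes of the translation machinery, 39 of 49 ribosomal protein genes were higher and 1 lower, with a median of 0.74 and sums of 8192, 10639 and 9770.4 at day 3 and 14443, 17429 and 16541 at day 7. Rplp1 had 153, 211 and 177 at day 3 and 526, 724 and 510.4 at day 7 (1.69 ± 0.16, adjusted p = 1.2e-06), and Rpl24 had 39.6, 39.3 and 35.2 at day 3 and 20.6, 15.7 and 20.3 at day 7 (-0.98 ± 0.22, adjusted p = 0.0022). Many of these genes have processed pseudogenes that could share their reads. Of the 15 mitochondrially encoded genes 7 were higher (4 without replicate 3 of day 3), with sums that overlapped. The nuclear RNA Malat1, the most abundant transcript among those that fell, had 24591, 17832 and 16930.3 at day 3 and 6564, 2024 and 4088 at day 7 (-2.36 ± 0.35, adjusted p = 6.7e-05), with replicate 2 of day 7 lowest.

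**Figure D5:**
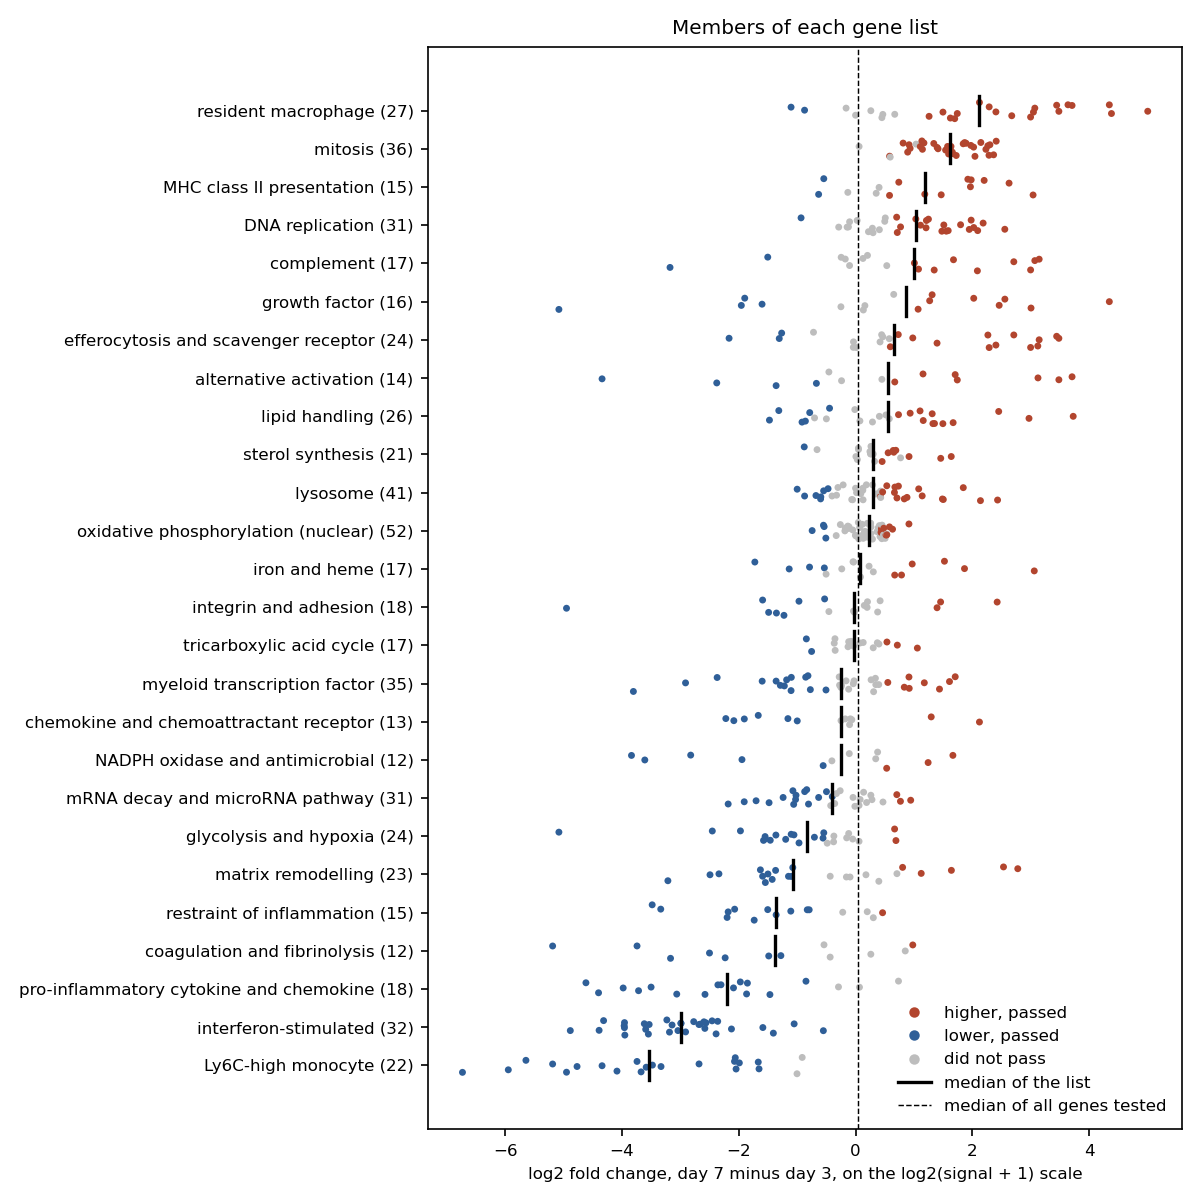
Log2 fold change of day 7 minus day 3 (x axis) of every tested member of 26 lists, 1 row per list with the number tested in parentheses. Thick black lines are list medians and the dashed line is the median of all genes tested, 0.04. Lists run from Ly6C-high monocyte genes (median -3.53) at the bottom to resident macrophage genes (median 2.12) at the top.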

How the data were processed

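RNA-seq of 12 libraries was deposited as 1 table of 14460 genes with 24 value columns. The first 12 columns are deposited linear signal, a normalised read count in which each value is a whole multiple of 1 read's worth (173520 of 173520 values within 0.02 reads, judged from the values). The other 12 are deposited log2 values, the log2 of that signal with values under 1 set to 0 (173520 of 173520 cells). Cutadapt 1.3, RSEM 1.2.20, edgeR 3.14.0 and GRCm38 are named by the submitters' processing notes; the annotation and how the tools were set are not given in the sources used here. Identifiers were matched to GENCODE M21 (14232, 98.4%), 15 symbols turned into dates were restored, 63 genes have no symbol and 42 symbols stand on a second identifier.

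Log2(signal + 1) of the 12879 genes whose signal averaged 1 or more was fitted with limma 3.58.1 in R 4.3.3: 4 group means over 12 libraries, a trend in the variance prior, 8 residual degrees of freedom, two-sided tests of day 7 minus day 3, Benjamini-Hochberg over all genes tested and a threshold of 0.05. The script was tested on simulated data. Depth was 6219246 to 10902936 reads in the 6 libraries compared; floors of 3 reads cover counting error only. Deviations from the group means of same-numbered day 3 and day 7 libraries correlated at a median r of 0.0986 (-0.0831 to 0.210, 3 pairs). Those of differently numbered libraries correlated at -0.0680 (-0.231 to 0.195, 6 pairs). So few pairs with overlapping ranges cannot decide whether the numbers pair the libraries, and the main fit used no pairing.

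The comparison, its gene lists and the rule for named genes were chosen with earlier results of these data known. The rule takes the 12 genes with the largest rise and the 12 with the largest fall that passed with groups that did not overlap and averaged a signal of 10 or more, the 4 largest changes each way and the 2 smallest of every list, the most abundant genes that passed, and Cx3cr1, Ly6c1, Ly6c2, Ccr2, Emr1, Itgam, Cd68, Csf1r and Ptprc. A part of them is printed. Lists are described by counts and medians, with no test. Alternatives were other pseudocounts, filters, scalings and priors, a replicate block, fewer libraries, the deposited log2 values, and edgeR 4.0.16 and DESeq2 1.42.0 on recovered reads.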

Additional observations from a re-analysis of the deposited data

How the results depend on the processing

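The count of genes that passed, 6032, lay between 4642 (6 libraries alone) and 6261 (no filter, 14460 genes) over the alternatives first listed, apart from the stricter rule of at least 2-fold, which left 3154 genes, 1628 higher and 1526 lower. On recovered reads edgeR's quasi-likelihood test called 5949 genes, DESeq2 6190, pseudocounts of 0.1 and 5 called 5947 and 5922, and quantile normalisation 5437. Median centring, which moved the median of all genes from 0.04 to -0.05, called 2566 higher and 3419 lower. Leaving out 1 library gave 5020 to 6049 genes, 2442 to 2980 of them higher and 2573 to 3069 lower. With the replicate block 6040 genes passed, 5875 of them also without it. Whether the replicate numbers pair the libraries was not settled. Mertk, which had not passed, passed with the block at adjusted p = 0.038. The 6 libraries alone without replicate 2 of day 7, an alternative chosen after the data were seen, gave 4802.

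Of 153 named genes that passed, 142 kept direction and side of the threshold under all 21 alternatives, and none turned. Spic, Prkra, Pfkfb4 and Gpi1 lost their call only in that fit of 5 libraries, Apoc1 and Ccr7 only with a pseudocount of 0.1. Signs turned only among genes that had not passed, and none of these passed in the turned direction; the cause was not tested. Under quantile normalisation Cd68 was at 0.18, Cxcr4 at 0.31, Cybb at 0.11, Maf at 0.22, Nfe2l2 at 0.32 and Stat6 at 0.10. With array weights Cybb was at 0.0054 and Tgfb1 at -0.20, and with median centring Cxcl9 was at -0.022. In the fit of 5 libraries Cybb was at 0.16 and Tgfb1 at -0.13. Leaving out 1 library at a time gave ranges of -0.26 to 0.034 for C3ar1, -0.26 to 0.066 for Cd68, -0.33 to 0.39 for Cxcl9, -0.23 to 0.091 for Cxcr4, -0.26 to 0.16 for Cybb, -0.024 to 0.56 for F13a1 and -0.13 to 0.34 for Tgfb1. Of the 84 list counts, 35 moved by more than 1.5 times under some alternative.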

Other observations

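Gene families were gathered by the start of their symbols, after their values had been seen, and are given as counts of genes that passed in limma, beside 23.3% of all genes higher and 23.5% lower. Levels here are mean signal ± SD (n = 3). All 8 Schlafen genes tested were lower at day 7, from Slfn3 (-1.26 ± 0.34) to Slfn4 (-6.73 ± 0.24); these genes stand in 1 cluster and share sequence, so reads may have been split between them. Of 9 guanylate-binding protein genes, which attack membranes of intracellular microbes and are also interferon-induced, 8 were lower; Gbp5 had 64.4 ± 22.7 at day 3 and 8.22 ± 3.18 at day 7 (-2.82 ± 0.29). Of 14 MHC class I genes 9 were lower and none higher, such as H2-T23 (-1.19 ± 0.19), while the classical genes H2-K1 (-0.07 ± 0.18) and H2-D1 (0.18 ± 0.18) did not pass, next to the higher class II genes of the report.

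The Ms4a genes, membrane proteins of myeloid and B cells, were lower in 7 of 9, with Ms4a4c at 674 ± 152 at day 3 and 39 ± 10.9 at day 7 (-4.08 ± 0.20). Ms4a7, a gene of tissue macrophages, was the 1 that rose, with 424 ± 229 at day 3 and 1295 ± 276 at day 7 (1.73 ± 0.28). Of 9 S100 genes 6 were lower, among them S100a4 (-1.79 ± 0.21) and S100a6 (-1.85 ± 0.23), and S100a1 and S100a16 rose (2.20 ± 0.26 and 1.87 ± 0.53). Of 12 toll-like receptor genes 5 were lower and none higher; Tlr5, the flagellin receptor, changed by -1.88 ± 0.24, while Tlr2 (0.00 ± 0.16) and Tlr4 (-0.21 ± 0.20) did not pass. Histone genes, most of whose messengers are made in S phase, were higher in 22 of 40 and lower in 2, as were 13 of 27 kinesin genes, with 4 lower. The cystine transporter gene Slc7a11 had 40.5 ± 5.44 at day 3 and 5.61 ± 1.38 at day 7 (-2.66 ± 0.21).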
